A study of Mus musculus with 2 samples.

Results

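The 50 genes described here encode proteins of G2 phase and mitosis, and their transcripts were counted in cochleae of mouse embryos at E16.5. The members were the rows whose symbol matched a fixed list in both libraries, and each symbol matched 1 row, giving 50 of 32285 genes. Single-cell RNA sequencing was done on 1 wild-type library and 1 library from Emx2Cre;Ptch1f/f embryos, called the mutant below, both on a mixed 129/SvEv and C57BL/6N background. Each library pooled 8 cochleae. Ptch1 encodes the receptor that keeps the Hedgehog pathway off without ligand, and Cre expressed from Emx2 can recombine the floxed allele only in cells that express Emx2 or descend from such cells. In these data Emx2 stood at 51.3 CPM in wild-type and 54.9 CPM in mutant epithelium, and at most at 0.663 CPM in mesenchymal, glial, vascular or macrophage cells of either library. CPM are unique molecular identifiers (UMIs) per 1000000 UMIs of the class.

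Cells enter mitosis when CDK1 bound to a B cyclin becomes active, after which spindle, kinetochore and chromosomal proteins divide the chromosomes and the anaphase-promoting complex degrades cyclins and securin. Most transcripts of these proteins accumulate only in S, G2 and M phase, so their level in a tissue tracks how many cells are in those phases. In the mouse cochlear duct, prosensory cells leave the cell cycle before hair cells differentiate, whereas the mesenchyme, Schwann cell precursors and vessels around it still divide late in gestation.

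Depth was 61130806 UMIs over 6500 barcodes in the wild type and 100135532 UMIs over 12326 barcodes in the mutant, with 7333 and 6524.5 UMIs in the median barcode. The libraries shared 25 barcode sequences. The shallowest wild-type barcode had 3352 UMIs, whereas mutant barcodes reached down to 500. The sample descriptions name different kit versions for the libraries while the protocol names 1, and the file headers name Cell Ranger 6.0.0 for the wild type and 5.0.1 for the mutant. Kit, software and genotype cannot be told apart. With 1 library per genotype there is no replicate check and no test was run: every interval is an exact 95% interval that covers counting error only. Ptch1 itself stood at 44.5 CPM in wild-type and 236 CPM in mutant epithelium, and Gli1, a Hedgehog target, at 0.374 and 23.6 CPM. Counts from the 3′ end of Ptch1 do not check the deletion where the deleted exons lie elsewhere, and the labels do not name the floxed exons.

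Cells were grouped by 8 marker genes per class into epithelial, mesenchymal, glial, vascular (endothelial cells and pericytes) and macrophage classes. The cell cycle genes of the fixed lists were left out of the clustering, but other cell cycle genes stayed in. Barcodes with over 5 UMIs per 10000 from 30 marker genes of 6 lineages other than their own were set aside as mixed. In the epithelium this kept 184 of 1717 wild-type barcodes and 678 of 2066 mutant ones. Epithelial sums, group counts and the ratios that the choice moves most are therefore also given with mixed barcodes kept. All 8 epithelial markers reached 10 CPM in the epithelium of both libraries, and 7 of 8 glial markers did so in glia. The largest cluster of the macrophage class was led by S100a8 and S100a9, genes also known from neutrophils, and Cma1, a mast cell protease, with 3 macrophage markers among its 10 leading genes. At the finer clustering 4 wild-type and 27 mutant barcodes led by the mast cell genes Cma1, Tpsb2 and Cpa3 formed a cluster of their own, with none of the markers among its leading genes. The macrophage class was therefore a mixture of myeloid cells.

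The epithelium had the lowest summed level of the 50 genes among these 5 classes in the wild type, and its level was higher in the mutant. Wild-type epithelium had 21.5 member UMIs per 10000 UMIs (interval 20.9 to 22.0, 5731 UMIs), and mutant epithelium had 43.2 (42.6 to 43.7, 22493 UMIs). The log2 ratio of mutant over wild type was 1.01 (0.97 to 1.05), which is 2.01-fold. With mixed barcodes kept the rates were 26.1 and 45.8, a ratio of 0.81. Fewer dividing cells and fewer of these transcripts per cell cannot be told apart in a summed rate; counts of barcodes are given further on.

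Outside the epithelium the libraries lay closer together. Mesenchyme, the connective tissue around the duct, had 50.5 and 51.9 member UMIs per 10000, a log2 ratio of 0.04 (0.03 to 0.05), and with the libraries scaled by the median ratio of all genes it was -0.01. Glia, the Schwann cell lineage of the ganglion and nerve, had 70.2 and 63.7 (ratio -0.14, -0.18 to -0.10). Endothelial cells had 57.3 and 76.4, and pericytes, the contractile cells on small vessels, had 64.1 and 75.2. For both vascular types together the ratio was 0.33 (0.30 to 0.36). The macrophage class had 39.2 and 38.7 (ratio -0.02, -0.09 to 0.05), and 45 wild-type and 61 mutant barcodes with at least 3 C1q UMIs gave a ratio of -0.17. Neurons, which no longer divide, had 12.9 and 7.59.

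**Figure D1:**
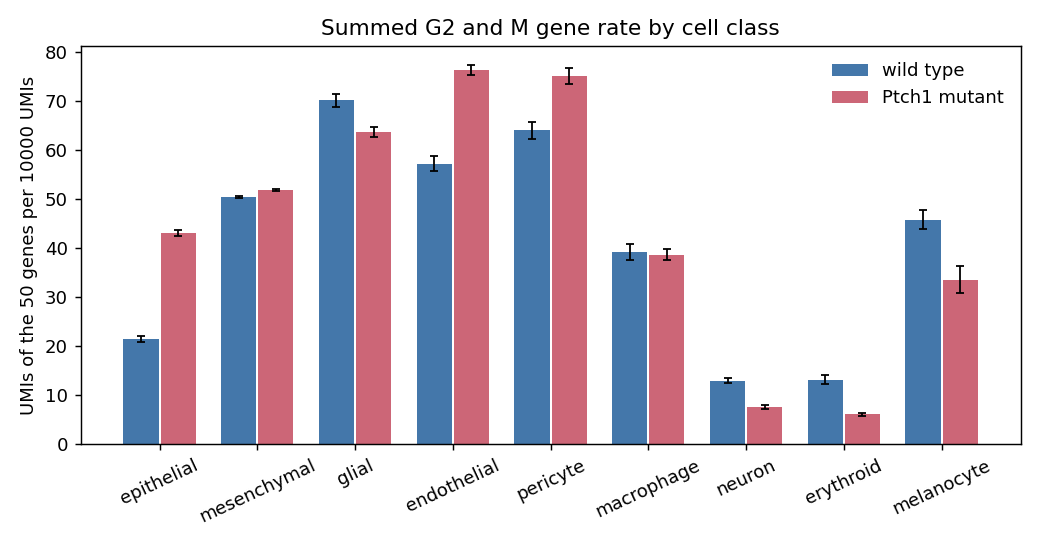
Summed UMIs of the 50 genes per 10000 UMIs (vertical axis) in each cell class (horizontal axis), for the wild-type and the mutant library; bars are class totals and error bars exact Poisson 95% intervals, which cover counting error only. Epithelium stood at 21.5 and 43.2, mesenchyme at 50.5 and 51.9, and glia at 70.2 and 63.7.

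The order of the classes was shared by most members. In the wild type the highest of the 5 classes was glia for 30 members and the vascular class for 20, and the lowest was epithelium for 41 and macrophages for 9. In the mutant the highest was the vascular class for 38 members, glia for 11 and macrophages for 1. The lowest there was the macrophage class for 31 and epithelium for 17. These ranks were not counted over all genes. Wild-type glia were at least 2-fold above wild-type epithelium for 44 of 50 members (median log2 ratio 2.02), where 10.1% of all genes tested were. In the mutant this held for 7 of 50 (median 0.62), beside 9.76% of all genes. Mesenchyme was at least 2-fold above epithelium for 41 of 50 wild-type values, beside 10.6% of all genes, but for 1 of 50 mutant values, beside 9.5%. Vessels were at least 2-fold above epithelium for 44 members in wild-type tissue (13.7% of all genes) and for 21 in mutant tissue (14.3%). Kept mixed barcodes gave 43 and 3 members for glia, 31 and 0 for mesenchyme and 36 and 13 for vessels, in the same order of libraries.

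**Figure D2:**
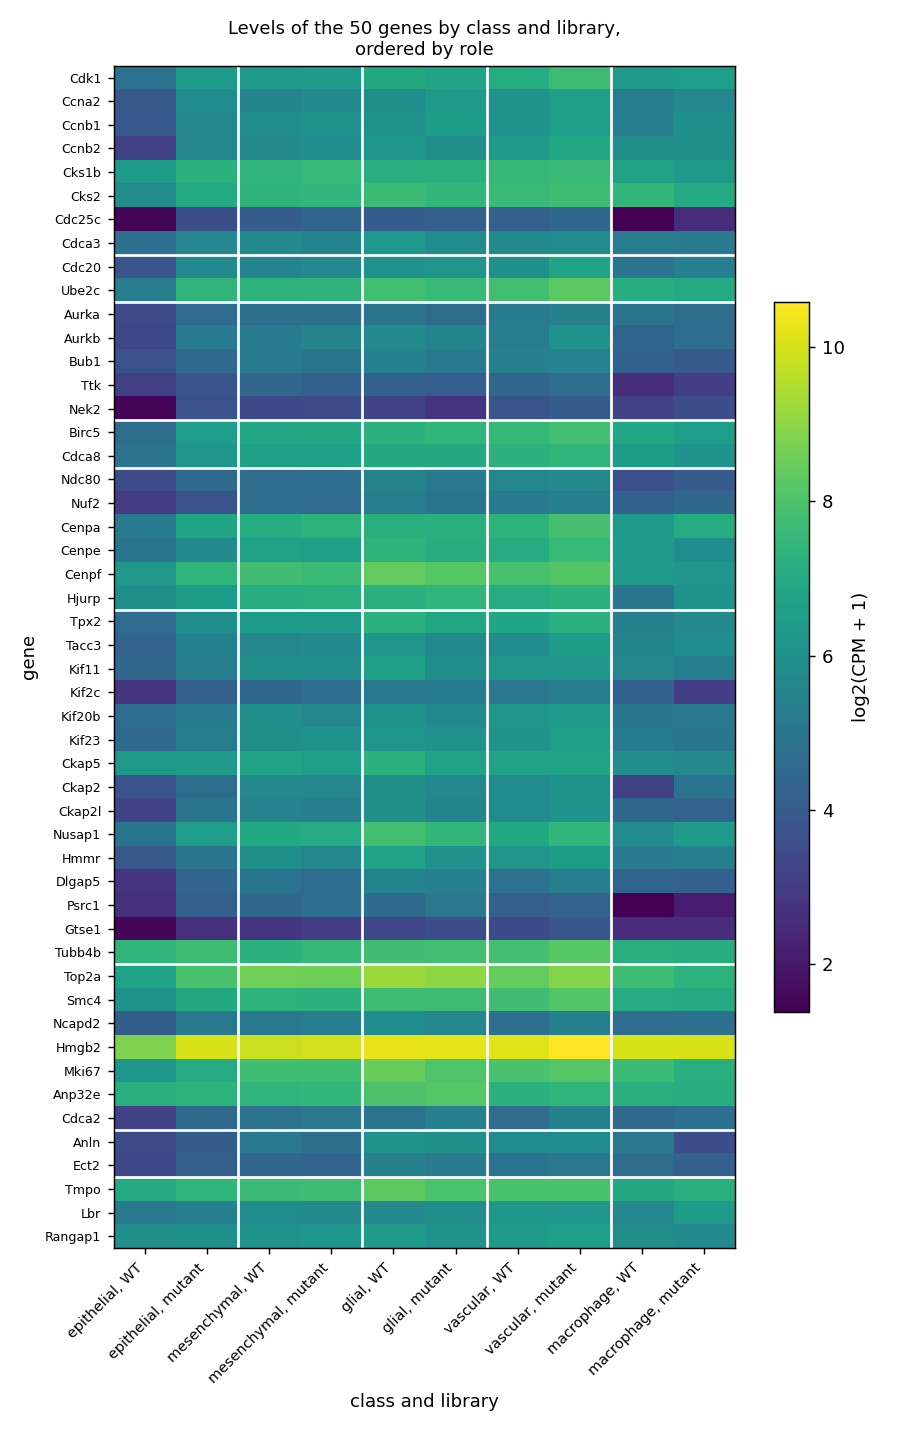
Level of each gene (rows, grouped by role and separated by white lines) in each class and library (columns) as log2(CPM + 1), with lighter colours higher; colours are to be compared along a row. The wild-type epithelial column is the darkest for 41 of the 50 genes among the wild-type columns.

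In the epithelium, 49 of 50 members had a higher CPM in the mutant, beside 6076 of all 13344 genes with at least 10 UMIs. The median log2 ratio was 1.09 for the members and -0.05 over all these genes. Ratios of single genes were taken after adding 1 CPM to both values, and their counting intervals without it. At least 2-fold higher in the mutant were 27 of 50 members, beside 3.8% of all genes, and none was 2-fold lower, beside 6.46%. With mixed barcodes kept, 13 of 50 passed 2-fold, beside 354 of all 16334 genes. All 50 were above 0 with a median of 0.82, beside 8852 of those genes above 0. Without doublet removal 16 passed, and 42 passed when Dcn and Erbb3 were left out of the mixed-barcode limit. The latter setting was chosen after seeing the data. The counting intervals of the 2 libraries lay apart for 40 members, all higher in the mutant, and overlapped for 10. No such count was made over all genes, so how common this was among other genes is not known. Measured lineage markers also differed between these epithelial classes: neuronal markers reached 10 CPM for 6 of 8 in wild-type and 0 of 8 in mutant cells (summed 231 and 30.5 CPM). Mesenchymal markers reached it for 5 of 8 and 2 of 8 (131 and 115 CPM), and glial markers for 5 of 8 and 3 of 8 (258 and 251 CPM), with Cdh19 and Gfra3 at 0 in both. Median depth was 8385 UMIs for wild-type barcodes, 3300 for mutant ones. Over barcodes with at least 3352 UMIs in both libraries the summed ratio was 1.03. The part of the marker differences in the result was not tested. Clusters 7 and 8 held 114 of the 184 wild-type barcodes, and clusters 27, 29 and 8 held 552 of the 678 mutant ones, so different clusters made up much of the class in each library.

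Letters known to recur in promoters of G2 and M phase genes were looked up in the promoters of the members. TTTGAA and TTTAAA are forms of the cell cycle genes homology region, which the MuvB complexes with MYBL2 and FOXM1 bind, and CCAAT is bound by NF-Y. The windows ran from 250 bases before to 50 bases after each start in RefSeq (build GRCm38.p6), and both strands were read. Windows were found for 43 of 50 members, 47 windows in all, and none for Aurkb, Ccna2, Cdc25c, Cdca2, Dlgap5, Smc4 and Tpx2. The sequences below show 150 bases, 125 before to 25 after the start. They are for both B cyclins, the mitotic activator Cdc20, the kinetochore gene Cenpf and Rangap1, picked because its epithelial level differed little. Capitals mark these letters on either strand, so that a CCAAT of the opposite strand would read ATTGG here and a TTTGAA of that strand reads TTCAAA. All 5 genes lie on the minus strand, and each sequence reads 5′ to 3′ along its gene, at chr13:100786462-100786611, chr9:70421530-70421679, chr4:118437319-118437468, chr1:189688062-189688211 and chr15:81729895-81730044.
Ccnb1: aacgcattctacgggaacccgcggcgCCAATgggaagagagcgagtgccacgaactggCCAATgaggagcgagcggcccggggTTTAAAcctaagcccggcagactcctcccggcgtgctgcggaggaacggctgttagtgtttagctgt
Ccnb2: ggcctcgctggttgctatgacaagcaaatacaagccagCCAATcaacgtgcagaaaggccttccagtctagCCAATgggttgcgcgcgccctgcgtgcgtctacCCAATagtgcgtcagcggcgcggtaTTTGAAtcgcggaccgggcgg
Cdc20: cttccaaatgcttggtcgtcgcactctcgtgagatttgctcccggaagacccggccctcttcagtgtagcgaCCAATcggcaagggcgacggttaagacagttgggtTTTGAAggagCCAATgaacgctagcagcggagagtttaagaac
Cenpf: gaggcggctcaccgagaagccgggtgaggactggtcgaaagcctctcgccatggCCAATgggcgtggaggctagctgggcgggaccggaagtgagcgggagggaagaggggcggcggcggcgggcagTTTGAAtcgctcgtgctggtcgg
Rangap1: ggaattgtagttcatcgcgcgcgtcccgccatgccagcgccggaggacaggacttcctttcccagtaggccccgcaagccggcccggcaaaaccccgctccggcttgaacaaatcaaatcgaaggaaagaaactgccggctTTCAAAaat

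The stretch of Ccnb2 held 3 CCAAT and 1 TTTGAA, that of Ccnb1 held 2 CCAAT and 1 TTTAAA, and that of Cdc20 held 2 CCAAT and 1 TTTGAA. Cenpf had 1 CCAAT and 1 TTTGAA, and Rangap1 had 1 TTTGAA, as TTCAAA, and no CCAAT. Rangap1 does not stand for all members that differed little. The whole window of Ckap5, the member with the smallest epithelial ratio, held 2 CCAAT, 1 TTTGAA and 1 TTTAAA. That of Nusap1, over 2-fold higher in mutant epithelium, held none of these letters. Whether the letters go with the epithelial ratio was not tested. Over the whole windows, TTTGAA or TTTAAA occurred in 39 of 47 member windows (83.0%), in 9 of 34 windows of S phase genes (26.5%) and in 27.6% of all 32851 windows. CCAAT occurred in 37 member windows (78.7%), 23 S phase windows (67.6%) and 37.4% of all windows, and at least 2 CCAAT in 30 (63.8%), 15 (44.1%) and 11.7%. Both kinds together were in 32 member windows (68.1%), 7 S phase windows (20.6%) and 10.7% of all windows. Among windows with at least 2 CCAAT, neighbouring ones started 31 to 35 bases apart in 13 of 30 member windows (43.3%) and in 11.1% of all 3842 such windows. Matches overlapped each other once each in Ube2c and Cdca8. Of the 9 broadly expressed members named below, 8 had windows, and 9 of these 9 windows held TTTGAA or TTTAAA, so these letters did not separate them from the rest. A match is a run of letters, not a measured site.

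Of 8 genes for CDK1, its cyclins, the small CKS subunits and their activators, 6 were at least 2-fold higher in mutant epithelium, with a median log2 ratio of 1.64. Keeping mixed barcodes left 3 of 8, with a median of 0.85. Ccnb2, a B cyclin, stood at 7.86 CPM in wild-type and 47.0 CPM in mutant epithelium, and its ratio of 2.44 (1.94 to 3.30) was the largest among members with at least 30 epithelial UMIs. Mesenchyme held it at 51.1 and 58.6 CPM, glia at 73.6 and 62.0 CPM, so wild-type epithelium was below every other value of these 3 classes. Its ratio was 1.02 with mixed barcodes kept (22.8 and 47.4 CPM), where Ccna2 had the largest ratio, 1.45. Ccnb1, the other B cyclin, went from 14.2 to 48.0 CPM, Ccna2, the A cyclin of S and G2, from 14.6 to 56.6 CPM, and the kinase gene Cdk1 from 26.95 to 83.86 CPM. Cks2 and Cks1b encode small proteins that help CDK1 complexes bind their substrates. Cks2 stood at 58.0 and 126 CPM (ratio 1.11, 0.87 to 1.38), Cks1b at 86.5 and 154 CPM (0.83, 0.62 to 1.05), and their ratios were 0.48 and 0.52 with mixed barcodes kept. In mesenchyme Cks2 stood at 163 and 171 CPM and Cks1b at 168 and 185 CPM. Cdc25c, the phosphatase that activates CDK1, rested on 5 wild-type and 58 mutant UMIs.

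The make-up of gene pairs varied between classes too. Cks1b gave 59.8% of the UMIs of the CKS pair in wild-type epithelium (interval 54.8 to 64.8%), 50.8% in wild-type mesenchyme (49.7 to 51.9%), 40.9% in wild-type glia (36.6 to 45.3%) and 36.8% in wild-type macrophages (29.6 to 44.5%). The mutant values had the same order, 55.0%, 51.9%, 45.8% and 38.2%. In epithelium with mixed barcodes kept the shares were 54.1% and 54.7%. Ccnb1 gave 53.4% and 53.2% of the B cyclin UMIs in wild-type and mutant mesenchyme. In epithelium its share was 64.4% (50.9 to 76.4%, 59 UMIs) and 50.5% (46.0 to 55.0%), and these intervals overlap.

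Both genes of the anaphase-promoting complex group were past 2-fold, also with mixed barcodes kept, at smaller ratios of 1.05 for Ube2c and 1.08 for Cdc20. Ube2c encodes the complex's E2 ubiquitin-conjugating enzyme and Cdc20 its mitotic activator. Ube2c stood at 37.8 CPM in wild-type and 169 CPM in mutant epithelium (ratio 2.13, 1.86 to 2.47), whereas mesenchyme held 161 and 165 CPM, glia 219 and 189.7 CPM. Cdc20 stood at 12.7 and 53.9 CPM in epithelium (ratio 2.0005, 1.57 to 2.64), beside 44.1 and 51.9 CPM in mesenchyme. The vascular class was also higher in the mutant, at 62.3 and 107 CPM for Cdc20 (ratio 0.77, 0.47 to 1.09).

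Mitotic kinases and the chromosomal passenger complex, which corrects kinetochore attachments, were also higher in mutant epithelium. Aurkb, the kinase of that complex, stood at 9.36 and 34.0 CPM in epithelium (ratio 1.75, 1.25 to 2.53). It also had the largest ratio of any member in mesenchyme (35.1 and 44.99 CPM, ratio 0.35, 0.24 to 0.48) and in the vascular class (38.01 and 68.41 CPM, ratio 0.83, 0.46 to 1.26). Its partner Birc5, or survivin, stood at 23.6 and 91.5 CPM in epithelium (ratio 1.91, 1.58 to 2.36) and at 119 and 122 CPM in mesenchyme, and the subunit Cdca8, or borealin, at 28.8 and 73.7 CPM (ratio 1.33, 1.00 to 1.73). Bub1, a spindle checkpoint kinase, stood at 11.6 and 22.3 CPM (ratio 0.88, 0.36 to 1.56) and in mesenchyme at 34.1 and 29.7 CPM (ratio -0.19). With mixed barcodes kept the ratio was 1.12 for Aurkb, 0.83 for Birc5 and 0.92 for Cdca8, so neither passenger subunit passed 2-fold. Over the 5 kinases, 3 passed 2-fold in epithelium, and 2 of 5 with mixed barcodes kept, and Ttk, another checkpoint kinase, had the smallest ratio of them at 0.67 (0.01 to 1.51).

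Kinetochores join chromosomes to the spindle, and 3 of their 6 genes here were at least 2-fold higher in mutant epithelium. Keeping mixed barcodes left 0 of 6, and the group median was 0.77 in place of 0.97. Cenpa, the centromeric histone H3, stood at 34.4 and 110.3 CPM (ratio 1.65, 1.36 to 2.01), and Cenpf, an outer kinetochore protein, at 79.4 and 174 CPM (ratio 1.12, 0.91 to 1.35), ratios that were 0.86 and 0.80 with mixed barcodes kept. In mesenchyme their directions were opposite, with Cenpa at 136 and 159 CPM (ratio 0.23, 0.17 to 0.29) and Cenpf at 214 and 197 CPM (ratio -0.12, -0.17 to -0.07). Hjurp, the chaperone that loads CENPA, had the smallest epithelial ratio of the group, 0.47 (0.22 to 0.75), at 60.3 and 84.1 CPM.

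Of 15 spindle genes, 8 were at least 2-fold higher in mutant epithelium, and 3 of 15 with mixed barcodes kept. Nusap1, a microtubule-bundling protein, stood at 30.3 and 89.2 CPM (ratio 1.53, 1.21 to 1.92), whereas Tubb4b, a tubulin found in many cell types, stood at 174 and 211 CPM (ratio 0.28, 0.12 to 0.44). Ckap5, a microtubule polymerase that also acts outside mitosis, had the smallest ratio of all members, at 82.0 and 79.1 CPM (-0.05, -0.29 to 0.19). Its direction turned with mixed barcodes kept, to a ratio of 0.28, still the smallest. In glia the spindle genes had the lowest group median, -0.31. There the motor gene Kif11 stood at 100.1 and 61.6 CPM (ratio -0.69, -1.05 to -0.36) and Hmmr, which binds spindle poles, at 102 and 64.8 CPM (-0.65, -0.997 to -0.318). Hmmr was also the lowest member in mesenchyme, at 61.9 and 48.1 CPM (-0.36, -0.46 to -0.27).

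Among 7 genes of chromosome structure, 3 were past 2-fold in epithelium with or without mixed barcodes, though Hmgb2 was at 0.96 with them. Hmgb2, a DNA-bending protein, gave the most UMIs of any member, 20.6% of the summed UMIs in wild-type and 23.8% in mutant epithelium. It stood at 442 and 1027 CPM there (ratio 1.22, 1.13 to 1.31), while mesenchyme held 920.1 and 989 CPM, glia 1249 and 1198 CPM. Top2a, which untangles sister DNA, stood at 105 and 246 CPM in epithelium (1.22, 1.04 to 1.42), while mesenchyme held 393 and 376 CPM, glia 589 and 516 CPM (-0.19, -0.32 to -0.06). Mki67, which coats mitotic chromosomes and is a common marker of cycling cells, had a ratio of 0.79 (0.57 to 1.03) in epithelium and -0.40 (-0.58 to -0.23) in glia.

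The cytokinesis and nuclear envelope genes did not pass 2-fold in epithelium. Anln, a scaffold of the contractile ring, stood at 10.1 and 15.7 CPM (ratio 0.59, -0.0042 to 1.32), and Ect2, which activates RhoA at the furrow, at 9.73 and 16.9 CPM (0.74, 0.15 to 1.49). Tmpo, a lamina-associated protein, stood at 127 and 172 CPM (0.43, 0.25 to 0.62), and Rangap1, which works in nuclear transport in every cell, at 60.6 and 62.8 CPM (0.05, -0.23 to 0.33). The intervals of Anln and Rangap1 include 0.

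**Figure D3:**
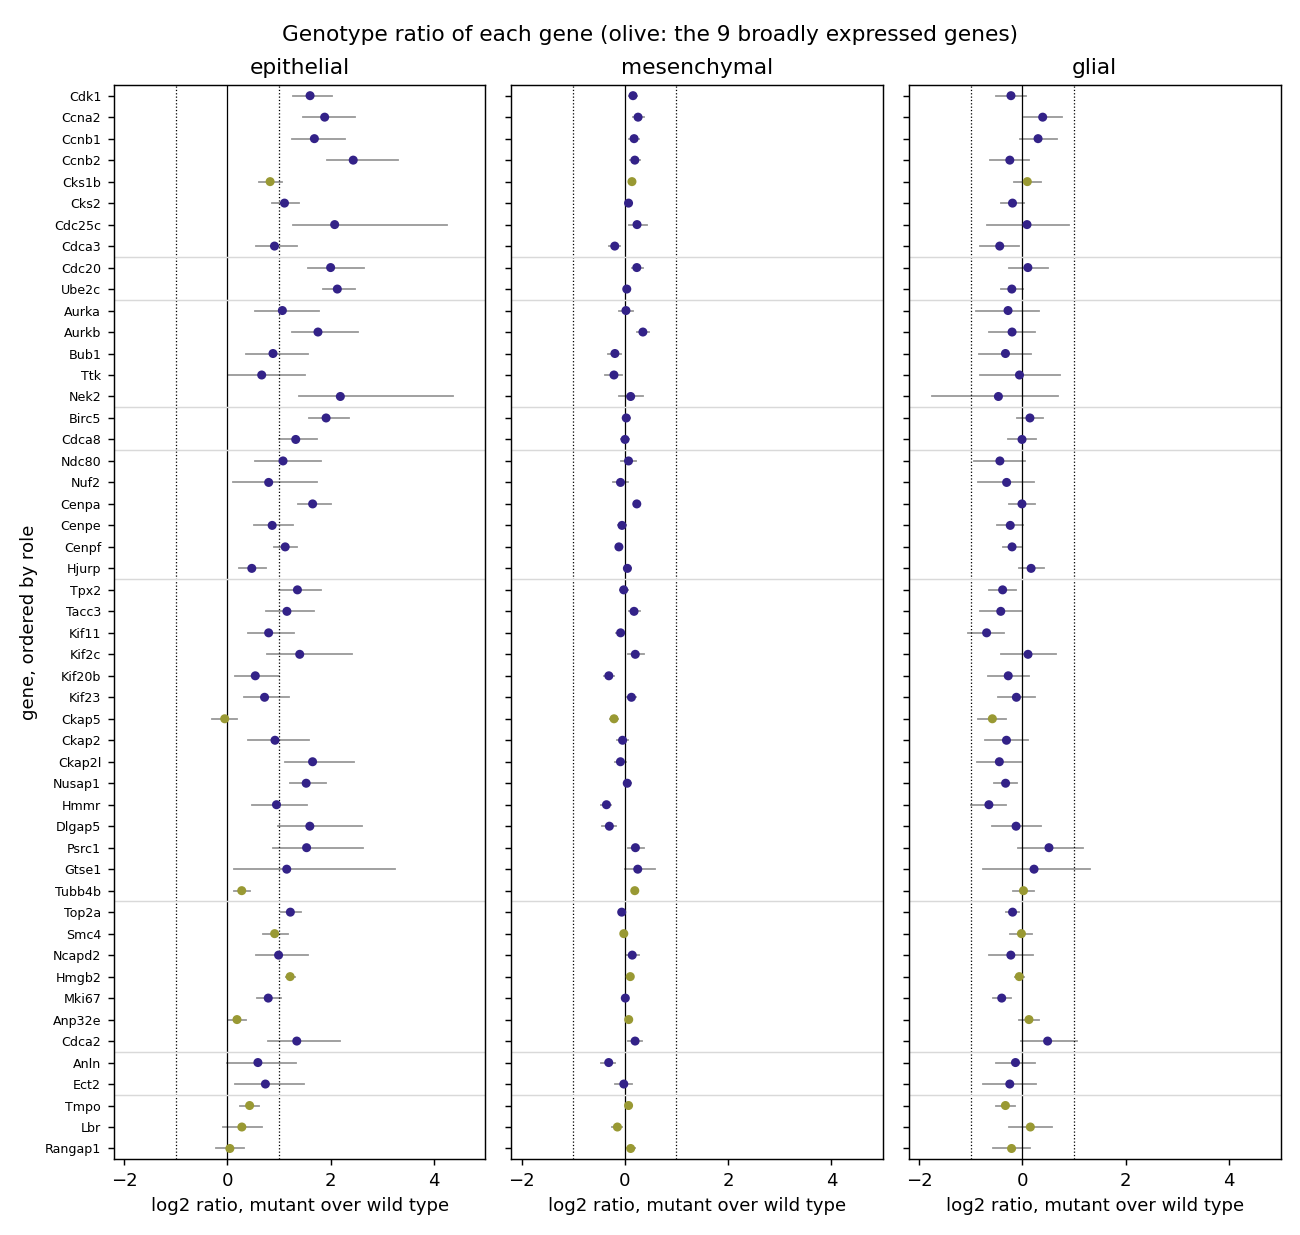
Log2 ratio of mutant over wild type after adding 1 CPM (horizontal axes) for each gene (vertical axis, by role) in epithelium, mesenchyme and glia; points are the ratios, grey lines 95% counting intervals of the ratio without the added CPM, dotted lines 2-fold, and olive points the 9 broadly expressed genes. In epithelium 27 points lie at or beyond the 2-fold line, and in mesenchyme and glia none does.

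In mesenchyme 0 of 50 members passed 2-fold in either direction, beside 0.45% of all genes higher and 0.621% lower, and ratios ran from -0.36 to 0.35 with a median of 0.05. This is the class with the most UMIs, and its intervals lay apart for 15 members higher in the mutant and 10 lower. At this depth small differences set intervals apart, and the same count was not made over all genes. In glia 0 of 50 passed, beside 3.4% higher and 1.87% lower, with a median of -0.20. There 14 members were above 0, beside 5813 of all 11292 genes. The vascular class had 0 of 50 past 2-fold, beside 2.5% higher and 2.91% lower, with a median of 0.29. In that class 48 members were above 0, beside 5920 of all 11979 genes. Of 47 macrophage members with at least 10 UMIs, 2 passed higher, beside 8.01% of all genes, and 2 lower, beside 3.57%.

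Barcodes were then counted, to give the share with many member UMIs apart from the level in each. Every barcode was thinned to 2000 UMIs, which left out 193 shallower mutant epithelial barcodes and no wild-type one. At least 10 member UMIs were found in 19 of 184 wild-type epithelial barcodes (10.3%, interval 6.33 to 15.7%) and in 109 of 485 mutant ones (22.5%, 18.8 to 26.5%). Unthinned, at different depths, the shares were 57.1% and 52.0%. Among barcodes with at least 10, wild-type barcodes averaged 24.5 member UMIs and mutant ones 27.2, and among the rest the means were 2.08 and 2.33. The limit itself bounds these means. Near the limit, with 8 to 12 member UMIs, lay 5 wild-type and 26 mutant barcodes. Weighting each barcode equally gave a summed log2 ratio of 0.85.

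In mesenchyme the shares were 20.9% of 2892 wild-type and 20.8% of 4207 mutant barcodes. Glia had 28.0% and 25.3%, pericytes 30.1% and 29.1%, and macrophages 19.0% and 14.3%, with overlapping intervals in each. Endothelial shares were 31.2% (20.2 to 44.1%) and 43.5% (34.0 to 53.4%), and these intervals overlap too. Neurons served as the class that should lack division: 5 of 104 wild-type barcodes (4.81%, 1.58 to 10.9%) and 0 of 63 mutant ones reached 10. A limit of 3 counts in 63 allows a mutant share of up to 4.76%, and the exact interval reaches 5.69%. The wild-type epithelial interval overlaps that of wild-type neurons but lies above that of mutant neurons. The mutant epithelial interval lies above both neuronal ones. Wild-type neurons are not a clean floor, as their glial markers summed to 369 CPM, beside 46.5 CPM in mutant neurons. With mixed barcodes kept, wild-type neurons had 21.8 member UMIs per 10000 and mutant neurons 7.64.

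**Figure D4:**
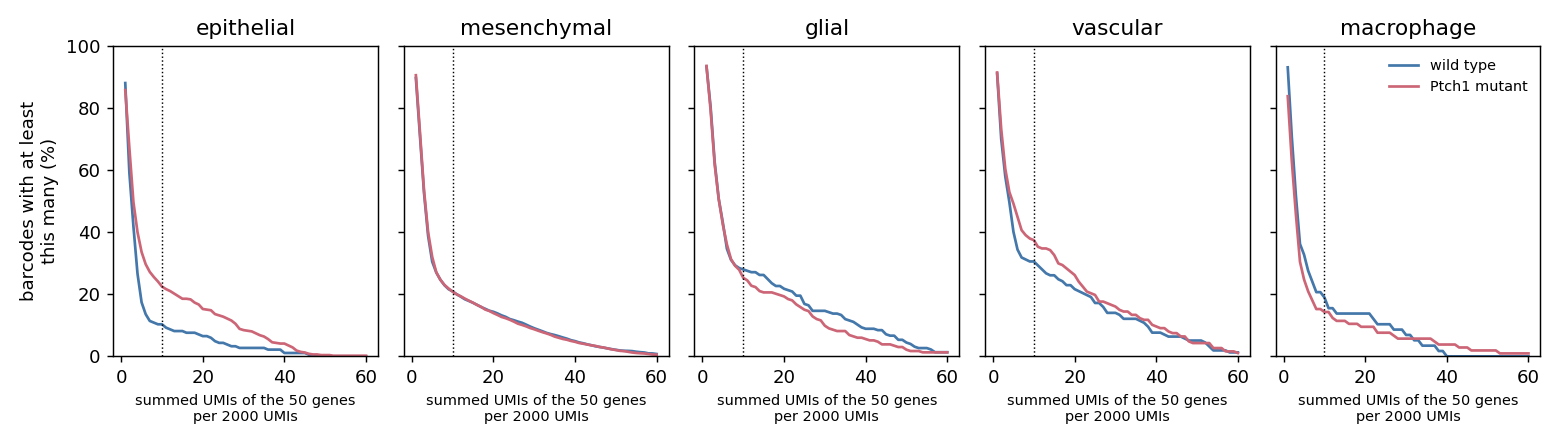
Share of barcodes (vertical axes, percent) with at least a given number of summed UMIs of the 50 genes after thinning to 2000 UMIs (horizontal axes), by class and library; the dotted line marks 10 UMIs. At 10 UMIs the epithelial lines stand at 10.3% and 22.5%, and the mesenchymal lines at 20.9% and 20.8%.

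Genes outside the list were read in the same epithelial barcodes. The 43 S phase genes had a median log2 ratio of 0.63 in epithelium. At or past 2-fold higher were 12 of 43, beside 3.8% of all genes, and none was 2-fold lower, beside 6.46%. With mixed barcodes kept it was 9 of 43 and none, beside 354 and 1021 of all 16334 genes. Chaf1b, a subunit of a chromatin assembly factor, had the largest ratio at 5.99 and 19.2 CPM, and Pola1, a DNA polymerase alpha subunit, the smallest at 18.7 and 16.7 CPM. Their ratios of 1.53 and -0.16 were 0.86 and 0.0092 with mixed barcodes kept. At 2000 UMIs, barcodes were also split at a lower limit, at least 5 UMIs of the S phase genes and at least 5 of the members. In the epithelium 8.15% of wild-type barcodes and 20.2% of mutant ones reached both limits, and 77.2% and 59.8% reached neither. Cdkn1c, an inhibitor of cyclin-dependent kinases, averaged 2.48 UMIs in wild-type barcodes with under 5 member UMIs, 1.38 in those with 5 to 9 and 0.789 in those with at least 10, and mutant means were 1.14, 0.722 and 0.505. Ccnd1, a G1 cyclin, had wild-type means of 0.559, 0.154 and 1.63 and mutant means of 1.01, 1.98 and 1.84 over the same 3 ranges, so it was higher at 10 or more than under 5 without a steady order between. Cdkn1b, the inhibitor that accompanies cell cycle exit in the prosensory domain, had wild-type means of 0.316, 0 and 0.211, and mutant means of 0.469, 0.259 and 0.0734. The wild-type means rest on 13 barcodes in the middle range and 19 in the highest.

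Over the whole epithelial class, 26 of 66 further G2 and M genes passed 2-fold towards the mutant, beside 3.8% of all genes. None passed towards the wild type, beside 6.46%, and the median was 0.90. With mixed barcodes kept 16 of 66 passed, beside 354 of all 16334 genes. Troap, a spindle protein, had the largest ratio of these at 0.374 and 6.72 CPM, but on 1 wild-type UMI, and Ckap4, an endoplasmic reticulum protein despite its name, had the smallest at 154 and 126 CPM (-0.29). Plk1, the polo-like kinase, stood at 4.49 and 16.7 CPM (ratio 1.69), and its ratio was 0.80 and that of Troap 0.93 with mixed barcodes kept. Among regulators of the programme 2 of 23 passed, beside 3.8% of all genes, with a median of 0.25. With mixed barcodes kept it was 3 of 23, beside 354 of all 16334 genes. Foxm1 stood at 6.36 and 10.4 CPM (17 and 54 UMIs) and Mybl2 at 4.12 and 5.76 CPM (11 and 30 UMIs), with ratios of 0.63 and 0.40 that were 1.03 and 1.01 with mixed barcodes kept. E2f7, a repressor in the E2F family, was the highest regulator at 3.37 and 11.7 CPM, and Rbl2, or p130, the lowest at 14.97 and 11.51 CPM. Of 16 measured G1 genes and inhibitors, 1 was 2-fold higher, Mycn at 19.8 and 45.7 CPM, beside 3.8% of all genes. Also 1 was 2-fold lower, Cdkn1c at 1028 and 470.4 CPM, beside 6.46%. Counts of 1 in 16 do not set this list apart from all genes. Mycn and Cdkn1c did not pass when mixed barcodes were kept. The ratio of Mycn was then 0.98 in place of 1.16 and that of Cdkn1c -0.50 in place of -1.13. Ccnd1 passed higher there (1.59 in place of 0.82) and Ccnd2, another D cyclin, lower (-1.45 in place of -0.17). Ccnd1 stood at 371 and 658 CPM without mixed barcodes. Cdkn1b stood at 185 and 203 CPM, and its direction turned with mixed barcodes kept (0.14 and -0.0463).

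The members were not equally tied to dividing cells. In wild-type mesenchyme, where 20.9% of barcodes reached 10 member UMIs, each gene was scored by the share of its UMIs in barcodes with at least 10 UMIs of the other 49. Kif2c, a microtubule-depolymerising kinesin, had 97.8% there, Hmmr 97.5% and the kinase Aurka 95.6%. Of the 41 members not listed as broadly expressed, 36 had a share over 80% in each library and 35 in both. The 9 listed as broad, Tubb4b, Hmgb2, Tmpo, Anp32e, Rangap1, Lbr, Cks1b, Ckap5 and Smc4, ranged from 40.4% for Anp32e, a histone H2A.Z chaperone, to 66.4% for Hmgb2. Hjurp stood among these at 51.4% and 49.5% in the wild-type and mutant libraries, the only member outside the broad list under 60% in either library. These broad genes had a median epithelial ratio of 0.28, with 1 of 9 past 2-fold, and the other 41 a median of 1.15, with 26 past it. When mixed barcodes were kept the medians were 0.52 and 0.86, with 0 of 9 and 13 of 41 past 2-fold. Neurons had 4.94 UMIs per 10000 for the 41 and 7.98 for the 9 in the wild type, and 1.21 and 6.39 in the mutant. In mutant neurons Ckap5 stood at 108 CPM, Rangap1 at 89.0 CPM and Tubb4b at 145 CPM, beside 2.66 CPM for Ube2c and 3.32 CPM for Top2a.

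**Figure D5:**
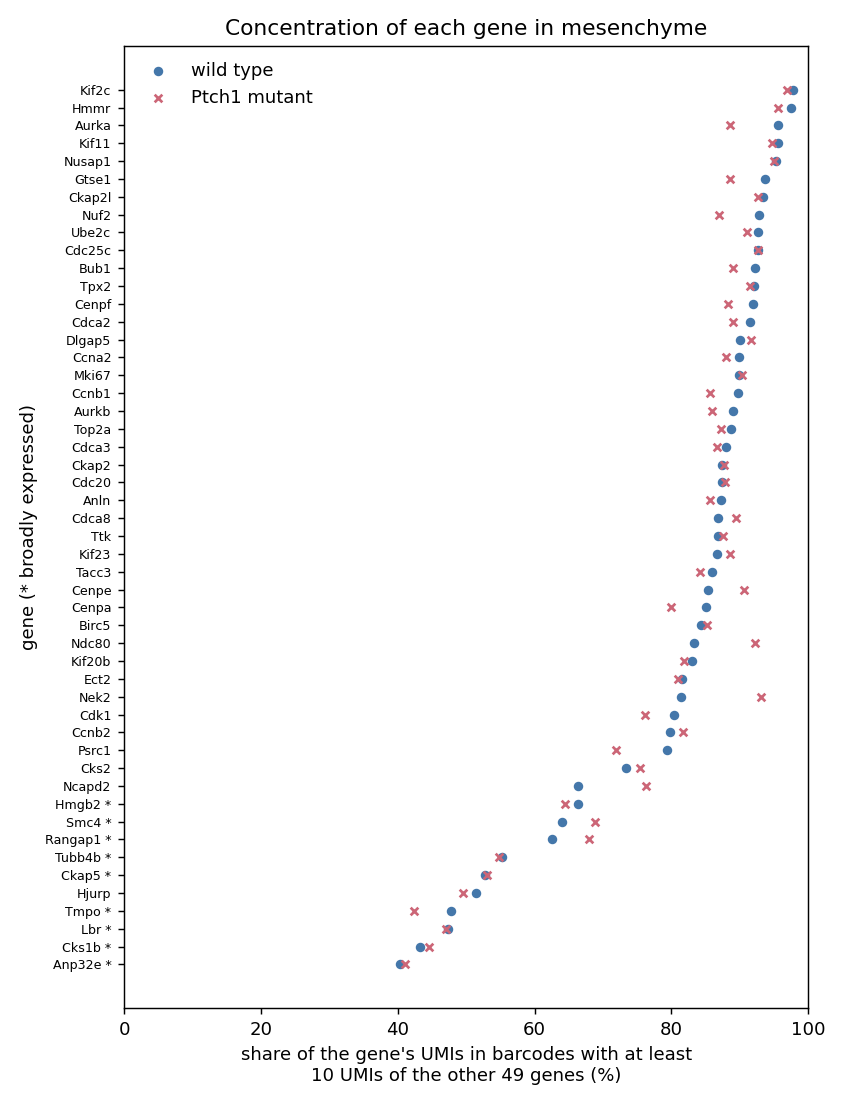
Share of each gene's UMIs (horizontal axis, percent) that lay in mesenchymal barcodes with at least 10 UMIs of the other 49 genes, after thinning to 2000 UMIs; genes on the vertical axis, asterisks mark the 9 broadly expressed ones, dots the wild type and crosses the mutant. Shares ran from 40.4% for Anp32e to 97.8% for Kif2c in the wild type.

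Erythroid cells gave an exception to the order of genes. Ube2c made up 16.03% of the member UMIs in 21 wild-type and 55.1% in 47 mutant erythroid barcodes (125 of 780 and 868 of 1576 UMIs), and Nusap1 followed in the mutant with 10.5%. Haemoglobin fills most of an erythroid library, so levels were also taken without it, at 1418 and 4084 CPM for Ube2c. In the same mutant cells Top2a rested on 17 UMIs and Birc5 on 9. These genes were named after their values were seen.

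Within the epithelium the summed level differed between sub-clusters. Sub-clusters were made without the listed cell cycle genes and without histone and haemoglobin genes, and named from domain markers. Unlisted cell cycle genes such as Pclaf stayed in, so cycling could still shape the sub-clusters. Prosensory cells, the precursors of hair and supporting cells, had 9.25 member UMIs per 10000 in 18 wild-type and 9.11 in 97 mutant barcodes. Their prosensory markers summed to 1744 and 1407 CPM, medial ones to 513 and 1136 CPM and lateral ones to 237 and 627 CPM. The prosensory name is therefore less clear in the mutant. Lateral cells had 8.86 in 29 and 9.54 in 50 barcodes, and hair cells 16.7 in 15 and 19.8 in 2. Medial cells, of the greater epithelial ridge, had 35.6 in 92 wild-type and 80.4 in 322 mutant barcodes. The medial barcodes include a sub-cluster led by Cenpf, described below, whose medial name is weak. Dividing cells of other domains grouped there would count as medial and be missing from the rates of their own domains. How many there were was not tested. With mixed barcodes kept and sub-clusters made anew, the rates were 24.5 and 15.1 for prosensory cells, 23.5 and 65.0 for medial cells and 18.3 and 19.8 for hair cells. For lateral cells they were 24.7 in 246 wild-type and 5.89 in only 2 mutant barcodes, so the domain levels of the wild type rested on which barcodes were kept. The sub-cluster named roof held 107 barcodes, all mutant, with a median of only 2230 UMIs, and had 41.3. No wild-type barcode had under 3352 UMIs, so depth and genotype cannot be told apart there. An unnamed sub-cluster led by Ecel1, Oc90 and Enpep had a higher summed level of the roof markers, 16671 CPM in 29 wild-type and 22225 CPM in 19 mutant barcodes against 13424 CPM, and its rates were 26.3 and 44.3. With mixed barcodes kept, 15 wild-type and 349 mutant barcodes were named roof, at 31.3 and 42.3, with medians of 6378 and 2319 UMIs.

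Within the medial class 1 sub-cluster stood apart. It was led by Cenpf, Top2a and histone genes although these were left out of its making, and had 130 in 14 wild-type and 142 in 62 mutant barcodes, which was 7.61% (4.22 to 12.4%) and 9.14% (7.08 to 11.6%) of epithelial barcodes. It held 41.3% of the wild-type and 60.6% of the mutant epithelial member UMIs. Its medial name is weak: none of its 10 leading genes was a medial marker, and its prosensory markers summed to 482 and 403 CPM beside 1572 and 1339 CPM for the medial ones. Another medial sub-cluster, with a median of only 1646 UMIs in the mutant, had 54.4 in 172 mutant barcodes and held 2 wild-type ones. The other medial sub-clusters had 11.5 and 20.6, and 12.1 and 11.3. Outside the Cenpf-led sub-cluster the whole epithelium had 13.5 (13.1 to 14.0) and 20.8 (20.4 to 21.3). In the sub-clusters made anew with mixed barcodes kept, 1 with Cenpf, Top2a and histone genes among its leading genes held 25 of 1717 wild-type barcodes (1.46%) and 236 of 2066 mutant ones (11.4%), at rates of 122 and 111. A shallow one led by Pbk, with Ube2c, Ccna2 and Cdk1 among its leading genes, held 3 wild-type and 241 mutant barcodes at 77.5 and 99.8. Both the barcodes kept and the sub-clusters differ between these settings, so the shares are given side by side without a comparison.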

How the data were processed

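The authors deposited unnormalized UMI counts of genes by barcodes for 1 wild-type and 1 mutant 10x library, made with Cell Ranger, per the file headers. The submitters' processing notes name Cell Ranger 6.0.0 and mm10, and the file headers name 6.0.0 for the wild type and 5.0.1 for the mutant. The members, gene lists and markers were chosen with earlier results of these data known.

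Barcodes needed 1000 UMIs, 500 genes and at most 10% mitochondrial UMIs, which 6440 wild-type and 9373 mutant barcodes passed. Scrublet's automatic threshold marked no doublet in either library, so the top-scored 0.8% per 1000 barcodes were removed, leaving 6108 and 8670. Both libraries were clustered together in scanpy 1.11.5 (2000 variable genes without listed cell cycle, histone and haemoglobin genes, 30 components, 15 neighbours, Leiden resolution 1). UMIs were summed per class and library, and ratios used CPM + 1 over genes with at least 10 UMIs in both libraries together. No test was possible with 1 library per genotype. Intervals are exact Poisson for rates, exact Clopper-Pearson for shares and conditional exact binomial for ratios, at 95%, and cover counting error only. The counting step was tested on simulated data. Named in full were the 2 most abundant members of each role and those with the largest and smallest epithelial ratio; from the other lists, the largest and smallest ratio with at least 30 UMIs and Foxm1, Mybl2, Plk1, Cdkn1b, Cdkn1c and Ccnd1. Other genes given with values were chosen after their values were seen. Alternatives changed the mixed-barcode limit, depth floor, doublet removal, class calls, clustering resolution, scaling, pseudocount and UMI minimum.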

Additional observations from a re-analysis of the deposited data

Results flagged for a closer look

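The log2 ratio of mutant over wild type for the summed level of the 50 genes was above 0 in 3 classes and below 0 in glia. It was 1.01 in epithelium against -0.14 in glia, 0.0405 in mesenchyme and 0.33 in the vascular class against the same glial value. The mesenchymal ratio turned to -0.0101 with median-of-ratios scaling and to -0.0125 with each barcode weighted equally, so its direction depended on the setting. For the summed 43 S phase genes the glial ratio was 0.17 (0.11 to 0.22), so the glial direction differed between the 2 lists. The S phase ratio was 0.57 in epithelium, 0.0088 in mesenchyme, 0.17 in the vascular class (-0.21 in pericytes alone) and -0.17 in macrophages. With 1 library per genotype each class has a single ratio per list, and the differences between classes and lists were not tested.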

How the results depend on the processing

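The epithelial summed log2 ratio of 1.01 stayed above 0 in 10 of 10 alternatives. It was 0.81 with mixed barcodes kept, 1.12 with a limit of 10 UMIs per 10000, 0.72 without doublet removal, 1.07 with classes from a per-barcode marker gate, 1.29 without the 9 broad genes and 1.06 with median-of-ratios scaling. Chosen after seeing the data, it was 1.17 with the limit taken without Dcn and Erbb3 and 0.85 with each barcode weighted equally. The count of 27 members at least 2-fold higher was 13 with mixed barcodes kept, 16 without doublet removal and 42 with the limit without Dcn and Erbb3. Keeping mixed barcodes also lowered the counts past 2-fold among kinetochore genes from 3 to 0, passenger subunits from 2 to 0, spindle genes from 8 to 3 and CDK and cyclin genes from 6 to 3. The mesenchymal ratio of 0.041 was 0.012 with mixed barcodes kept, 0.0123 at a limit of 10, 0.0155 without the broad genes, -0.0101 with median-of-ratios scaling and -0.0125 with equal weights. The glial ratio of -0.14 was -0.0652 with the limit without Dcn and Erbb3, -0.18 without the broad genes and -0.22 with equal weights. The vascular ratio of 0.33 was 0.44 with mixed barcodes kept, 0.29 at a limit of 10, 0.22 with the gate, 0.26 with equal weights, 0.42 in endothelial cells alone and 0.23 in pericytes alone. The macrophage ratio of -0.02 was 0.0528 at a limit of 10, 0.0869 without doublet removal, -0.33 with the gate, -0.16 with equal weights and -0.17 in barcodes with at least 3 C1q UMIs, so its direction depended on the setting. In each case the cause was not tested. The member medians ranged from 0.74 to 1.37 in epithelium and from -0.21 to -0.11 in glia over 11 alternatives. No paired analysis was possible because each genotype has 1 library. The strict mixed-barcode limit left 184 wild-type epithelial barcodes, which limits the low members most.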

Other observations

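Melanocytes, outside the 5 classes compared, had 45.9 member UMIs per 10000 in 43 wild-type and 33.6 in 14 mutant barcodes. Erythroid barcodes had 88.5 and 74.1 member UMIs per 10000 once haemoglobin was left out of the total.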
